A study of Mesocricetus auratus with 8 samples.

Results

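The transcripts described here are those of the mitochondrial ribosomal proteins in the hearts of 8 female golden hamsters (Mesocricetus auratus), killed at 25 weeks of age and sequenced as polyA RNA with 1 library per animal. Members were the rows of the count table named Mrpl or Mrps followed by a digit. There were 76 of them among 20360 genes, 49 with Mrpl names and 27 with Mrps names. The submitters describe wild-type hamsters and hamsters with Myh6 loss of heterozygosity; Myh6 encodes the alpha cardiac myosin heavy chain, and all hearts were taken ahead of the start of dilated cardiomyopathy. Which of the 8 hamsters (M5F5, M5F7, M5F12 and M5F16; M5F19, M5F22, M5F55 and M5F56) had which genotype is not stated in the labels, so genotypes were not compared and every value belongs to a single library.

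Mitochondria keep their own ribosome, which makes only the few proteins encoded by mitochondrial DNA, all of them core parts of the respiratory chain and ATP synthase. Every protein of this ribosome is encoded in the nucleus, made in the cytosol and imported. Mrpl genes mostly encode proteins of the large subunit, where peptide bonds form, and Mrps genes those of the small subunit, where messenger RNA is decoded. Some descend from bacterial ribosomal proteins and others exist only in mitochondria. The heart depends heavily on oxidative phosphorylation, and in humans inherited defects of MRPL3, MRPL44 and MRPS22 are among the known causes of cardiomyopathy in infancy.

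Library totals ran from 13608500 to 15255764 counts, and a count of 0 allows a level of up to 3 counts, here 0.199 to 0.214 CPM (the usual counts relative to library size, scaled with the trimmed mean of M-values). All 76 members passed the filter of a mean count of at least 50, as did 10909 genes in all, and the lowest count of any member in any library was 81. The labelled tissue, heart, was checked against heart muscle markers, called ventricular markers below. Of these, 12 of 12 were measured, with a summed level of 91535 to 107751 CPM. Not all of them are restricted to the ventricle, so the list does not separate it from the atrium. Of the 5 atrial markers listed, Myl7 had no row and could not be checked. Bmp10 had no count in any library, Sln stayed under the filter, and Myl4 was at 3.26 to 7.51 CPM. Nppa, an atrial gene that stressed ventricles also express, was at 971 CPM in M5F5 and at 53.2 to 382 CPM elsewhere. The adipocyte markers Adipoq and Lep had no count in any library, and the 6 skeletal muscle markers were all under the filter. M5F5 also stood apart in 4 liver markers, which summed to 110.5 CPM there and to at most 1.37 CPM elsewhere, so the pattern over libraries is also given without it.

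Members varied little from animal to animal. The highest library exceeded the lowest by a median of 1.31-fold over the 76 members, against 1.45-fold over all genes tested and 1.41-fold over the 8935 genes whose mean counts lay within the members' range. With each gene's top and bottom library dropped, the median was 1.18-fold for members, 1.25-fold for all genes tested and 1.23-fold for those 8935. The median of mean counts was 701 for members and 404 for all genes tested, and the part of depth in these ranges was not tested. Of the members, 70 spanned less than 1.5-fold, as did 55.7% of all genes tested. Another 5 spanned between 1.5-fold and 2-fold, as did 3314 of the 10909 genes tested, and 1 spanned more than 2-fold. Of all genes tested, 13.9% spanned 2-fold or more and passed the chi-square test described below, and 28.7% had a range narrower than that of the median member. After dropping the extreme libraries no member (0 of 76) spanned 2-fold, where 2.85% of all genes tested did.

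Small as they were, most of these differences were larger than counting error, as they were for most genes tested. Counts of 67 of the 76 members differed among the 8 libraries by a chi-square test adjusted over all genes tested (Benjamini-Hochberg). That share of 88.2% was close to the 86.4% of all genes tested and to the 87.7% of the 8935 genes within the members' count range. The 9 members that did not pass were Mrpl15, Mrpl46, Mrpl49, Mrpl53, Mrpl57, Mrps2, Mrps5, Mrps23 and Mrps30, with adjusted p from 0.0588 for Mrpl46 to 0.268 for Mrps5. This test and the 95% Poisson intervals given below cover counting error only, not variation between animals or between preparations. They also treat each count as a separate molecule. PCR copies were not removed with molecular identifiers, so the true counting error may be larger than they allow.

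**Figure D1:**
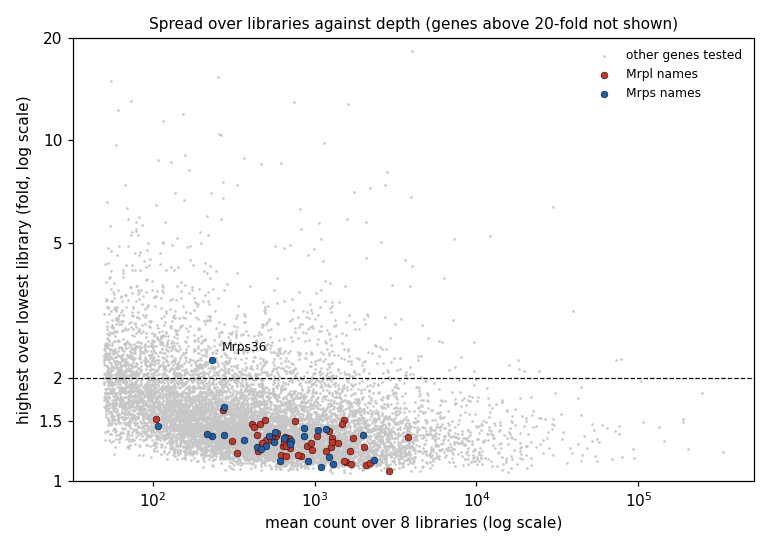
Fold between the highest and the lowest of the 8 libraries (vertical, log scale) against mean count (horizontal, log scale) for every gene tested, with Mrpl names in red, Mrps names in blue and other genes in grey. Among the 76 members only Mrps36, at 2.26-fold, lies above the dashed line at 2-fold.

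The members tended to be high or low together in a library. Their summed level was 5291 CPM in M5F5 (95% Poisson interval 5253 to 5329), 5170 in M5F7 (5134 to 5207), 4868 in M5F56, 4866 in M5F22, 4861 in M5F55, 4743 in M5F19, 4514 in M5F16 (4480 to 4548) and 4508 in M5F12 (4473 to 4542). M5F5 and M5F7 therefore stood at the top, M5F12 and M5F16 at the bottom, and the extremes differed 1.17-fold. The median member lay 0.14 above its own median in M5F5 and 0.10 above it in M5F7 on the log2 scale, and 0.10 below it in both M5F12 and M5F16 (deviations of -0.10). It lay at -0.034 in M5F19 and between 0.0068 and 0.010 in M5F22, M5F55 and M5F56. Over all genes tested the same median stayed between -0.0071 and 0.0069 in every library.

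Counts of members give the same picture. In M5F5, 68 of 76 members lay above their own median, beside 51.9% of all genes tested, and in M5F7 62 did, beside 50.5%. In M5F12 only 10 lay above it, beside 47.2%, and in M5F16 only 8, beside 51.3%. The counts were 24 in M5F19 (50.1% of all genes tested) and 44 each in M5F22 (53.1%), M5F55 (47.4%) and M5F56 (48.6%). M5F5 held the highest value of 32 members (16.5% of all genes tested) and M5F7 that of 19 (17.7%). M5F12 held the lowest value of 29 (13.9%) and M5F16 that of 22 (12% of all genes tested). No member (0 of 76) was highest in M5F16, as 11.2% of all genes tested were, and 1, Mrpl10, was highest in M5F12, as 9.26% were. The other highest values were 7 in M5F19 (16.9%), 5 in M5F22 (11.6%), 7 in M5F55 (6.01%) and 5 in M5F56 (10.8%). The other lowest values were 1 in M5F5 (13.3%), 2 in M5F7 (18.1%), 9 in M5F19 (15%), 3 in M5F22 (9.71%), 5 in M5F55 (6.84%) and 5 in M5F56 (11.2%). High in both M5F5 and M5F7 and low in both M5F12 and M5F16, relative to their own medians, were 49 of 76 members and 21.3% of all genes tested. The members share libraries and scaling and are not independent of each other, and the 4 libraries are singled out because of these values.

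The order of the libraries depended in part on scaling. With plain total counts the summed level still peaked in M5F5 (5210 CPM) and M5F7 (5151 CPM), but M5F56 followed at 5105 CPM and the lowest was M5F19 at 4554 CPM, below M5F16 at 4570 and M5F12 at 4643. M5F19 then held the lowest value of 25 members in place of 9. Without M5F5 the median deviation was 0.12 in M5F7, -0.094 in M5F12 and -0.080 in M5F16, and M5F7 held the highest value of 36 members.

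**Figure D2:**
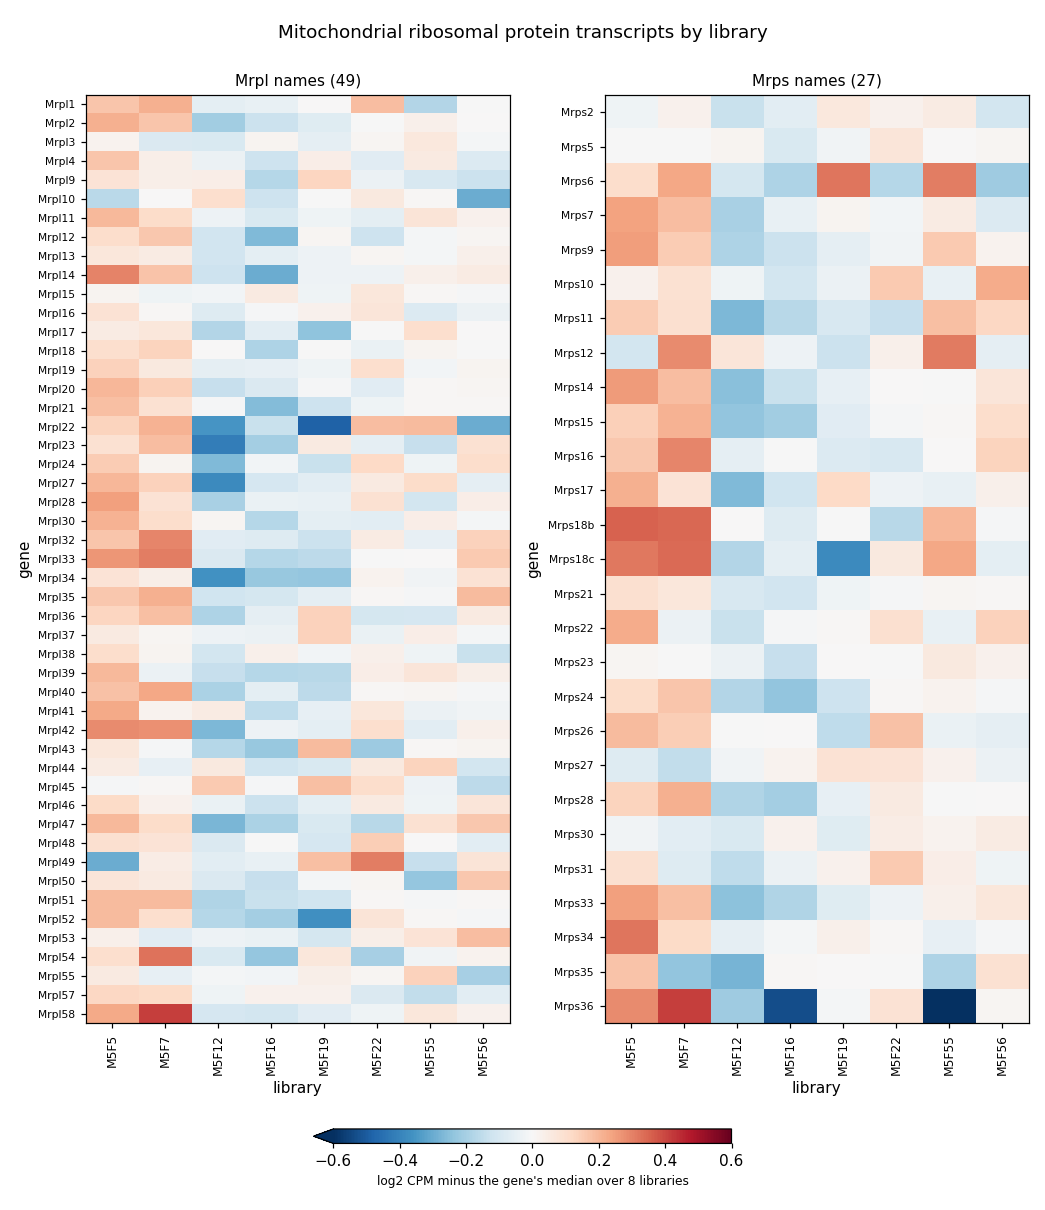
Deviation of each member's log2 CPM from its own median over the 8 libraries, with genes in rows (49 Mrpl names on the left, 27 Mrps names on the right) and libraries in columns. Red is above and blue below the gene's median, and the M5F5 and M5F7 columns are mostly red while M5F12 and M5F16 are mostly blue; the darkest cell, Mrps36 in M5F55, is off the scale.

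In bulk tissue fewer cells of a type and less RNA per cell cannot be told apart, and marker lists moved with this pattern in part. The summed ventricular markers were highest in M5F7 (107751 CPM) and M5F5 (105502 CPM), nearly level with M5F22 (105473 CPM), and lowest in M5F12 (91535 CPM), with M5F16 (95369 CPM) and M5F56 (95508 CPM) level above it. Single markers differed: Atp2a2, the calcium pump, was lowest in M5F5 at 10284 CPM and highest in M5F12 at 15664 CPM, and Ryr2, the calcium release channel, was lowest in M5F5 and M5F7. The median deviation of the 12 markers was highest in M5F22 (0.10) and was 0.037 in M5F5, 0.061 in M5F7 and -0.18 in M5F12. As a share of that sum the members came to 5.01% in M5F5, 4.80% in M5F7, 4.92% in M5F12, 4.73% in M5F16, 4.64% in M5F19, 4.61% in M5F22, 4.87% in M5F55 and 5.10% in M5F56. Set against these markers M5F12 was no longer low, and M5F22 and M5F19 were lowest. All 8 endothelial markers lay above their medians in M5F5 (51.9% of all genes tested) and in M5F7 (50.5%). Their summed level was 1291 and 1443 CPM there and 911 to 1219 CPM in the other libraries. None (0) of the 5 measured macrophage markers lay above its median in M5F5 (51.9% of all genes tested) or M5F7 (50.5%). The summed level of all 7 macrophage markers listed, with those under the filter included, was 65.4 CPM in M5F5, 79.0 in M5F7 and 90.9 to 127 in the rest. The 7 fibroblast markers summed to 1260 CPM in M5F5, 1268 in M5F7 and 1032 to 1225 elsewhere. Their median deviation was -0.059 in M5F5 and 0.10 in M5F7. The 6 smooth muscle and pericyte markers summed to 1307 CPM in M5F5, 1647 in M5F7 and 1165 to 1376 elsewhere. Their median deviation was 0.035 in M5F5 and -0.012 in M5F7. The part of cell mix in the members' levels was not tested.

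**Figure D3:**
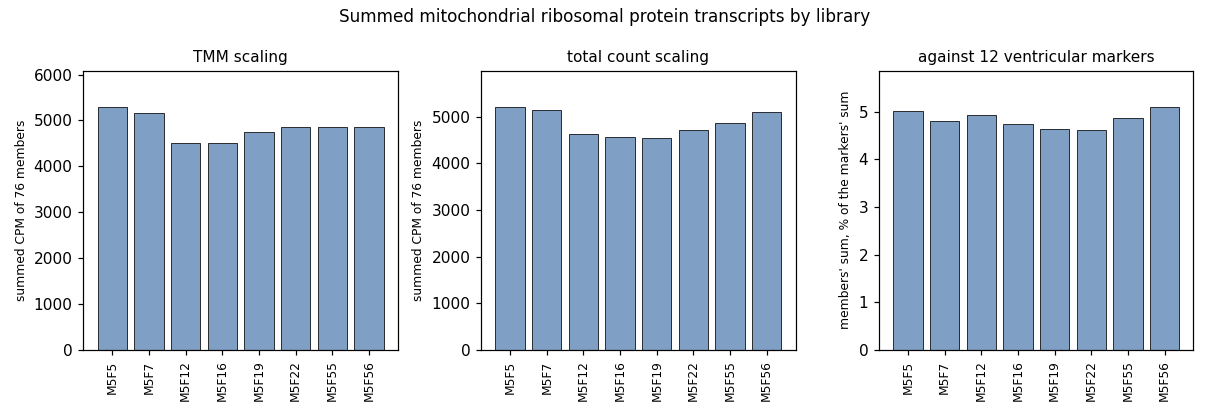
Summed level of the 76 members in each library (bars, from 0), as CPM with trimmed mean of M-values scaling (left), as CPM of plain total counts (middle) and as a percentage of the summed level of 12 ventricular markers (right). M5F5 and M5F7 are the tallest bars on the left and middle, and M5F12, 4508 CPM on the left, is at 4.92% on the right.

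Transcripts with Mrpl names and those with Mrps names had similar median deviations in each library. The Mrps names include Mrps30, of the large subunit, and Mrps36, which is not a ribosomal protein. The summed level of Mrpl names was 2.44 to 2.54 times that of Mrps names in every library, highest in M5F12. The median deviation of Mrpl names ran from -0.11 in M5F16 to 0.13 in M5F5, and that of Mrps names from -0.13 in M5F12 to 0.15 in M5F5. Within a library the medians of Mrpl and Mrps names differed by 0.061 or less. The widest gap was in M5F7, where the Mrps names were the higher (0.15 against 0.087). Small subunit genes were not uniform there, with a median of 0.18 for 17 of bacterial descent and -0.019 for 8 found only in mitochondria. In M5F12 the Mrps names were the lower, by 0.043. Single libraries moved these small gaps, and without M5F55 the gap in M5F12 was 0.014.

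Proteins of bacterial descent in the large subunit, 30 members, line the peptidyl transferase centre, the tunnel and the surface. Of these, 29 lay above their own median in M5F5 (51.9% of all genes tested), 27 in M5F7 (50.5%), 4 in M5F12 (47.2%) and 2 in M5F16 (51.3%). Mrpl14, which sits at the interface with the small subunit, had the widest range among those outside the tunnel exit. It was at 126 CPM in M5F5 (120.6 to 132), 116 in M5F7, 107 in M5F56, 105 in M5F55, 101 in M5F19 and in M5F22, 94.4 in M5F12 and 83.7 in M5F16 (79.1 to 88.4). Its highest and lowest intervals did not overlap, the span was 1.51-fold, and the log2 range of 0.59 was 0.42 without M5F16. Mrpl33 was at 101 CPM in M5F7, 98.3 in M5F5, 91.2 in M5F56, 81.8 in M5F55, 81.7 in M5F22, 77.1 in M5F12, 73.3 in M5F19 and 72.6 in M5F16.

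Some core proteins of the large subunit had narrow ranges. Mrpl15 was at 208 CPM in M5F22, 205 in M5F16, 201 in M5F5, 199 in M5F55, 197 in M5F56, 196 in M5F12, 195 in M5F19 and 194 in M5F7, a span of 1.07-fold and the narrowest of all 76 members. Its counts did not differ beyond counting error (chi-square adjusted p = 0.0815). Mrpl3, one of the genes whose human counterpart is tied to cardiomyopathy, was at 152 CPM in M5F55, 148 in M5F5, 147 in M5F16 and in M5F22, 144 in M5F56, 140 in M5F19 and 137 in M5F7 and M5F12. Its span of 1.11-fold did exceed counting error (chi-square adjusted p = 0.0043). Mrpl2, Mrpl4, Mrpl13, Mrpl16 and Mrpl19, other proteins with bacterial relatives, spanned 1.12-fold (Mrpl16) to 1.34-fold (Mrpl2) and were all highest in M5F5. The span of Mrpl2 was not narrow, being above the members' median of 1.31-fold.

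At the stalk, the flexible arm that recruits translation factors, Mrpl12 had the highest CPM of any member, a value not divided by transcript length and so not ranked against other genes. Mrpl12 also binds the mitochondrial RNA polymerase in human cells. It was at 298 CPM in M5F7 (289 to 307), 286 in M5F5, 269 in M5F56, 268 in M5F19, 264 in M5F55, 246 in M5F12, 245 in M5F22 and 221 in M5F16 (214 to 229). M5F7 and M5F5 were clearly above M5F16, and the other 5 lay between. Mrpl10, which anchors Mrpl12, went against the group. It was highest in M5F12 at 38.5 CPM and lowest in M5F56 at 29.2, and its deviation in M5F5 was -0.16. Mrpl11 spanned 1.22-fold, Mrpl53 1.22-fold and Mrpl54 1.47-fold, the last from 24.0 CPM in M5F16 to 35.4 in M5F7.

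Around the exit of the nascent peptide, where the ribosome meets the inner membrane, the members were Mrpl17, Mrpl22, Mrpl23, Mrpl24, Mrpl39, Mrpl44, Mrpl45 and Mrpl47. All 8 differed beyond counting error, beside 86.4% of all genes tested. Mrpl22 was at 22.2 CPM in M5F7 (19.9 to 24.8), 21.9 in M5F55, 21.9 in M5F22, 21.1 in M5F5, 17.5 in M5F16, 15.6 in M5F56, 15.0 in M5F12 and 13.7 in M5F19 (11.9 to 15.8), and the intervals of the highest and lowest libraries did not overlap. Its span of 1.62-fold was the widest in the large subunit and 1.46-fold remained after the extreme libraries were dropped. Mrpl23 was at 39.7 CPM in M5F7 (36.5 to 43.0), 37.2 in M5F5, 37.1 in M5F56, 36.3 in M5F19, 33.6 in M5F22, 31.7 in M5F55, 30.3 in M5F16 and 26.2 in M5F12 (23.6 to 29.0). M5F12 stood lowest, and the log2 range of 0.60 was 0.39 without it.

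Mrpl45, which holds the ribosome to the inner membrane, was another exception. It was highest in M5F19 at 153 CPM and lowest in M5F56 at 122, and it lay 0.16 above its median in M5F12, where most members were low. Mrpl44, whose human counterpart is mutated in an infantile cardiomyopathy, ran from 39.8 CPM in M5F16 to 47.5 in M5F55, a span of 1.19-fold.

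In the central protuberance, the crown of the large subunit that contacts transfer RNA, Mrpl18, Mrpl38, Mrpl40, Mrpl46, Mrpl48 and Mrps30 spanned 1.10-fold to 1.34-fold, with a median of 1.19-fold. Mrps30 carries a small subunit name but belongs to the large subunit. It was at 79.1 CPM in M5F56, 79.0 in M5F22, 77.9 in M5F16, 77.7 in M5F55, 75.4 in M5F5, 73.3 in M5F7, 72.8 in M5F19 and 71.8 in M5F12, a span of 1.10-fold within counting error (chi-square adjusted p = 0.124). Of the remaining large subunit proteins found only in mitochondria, Mrpl37 was at 165 CPM in M5F19, 156 in M5F5, 154 in M5F55, 151 in M5F7, 149 in M5F56, 147 in M5F12 and 146 in M5F16 and M5F22. M5F19 stood above the rest, and the span was 1.13-fold.

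Mrpl42, Mrpl52 and Mrpl58 spanned 1.47-fold, 1.47-fold and 1.44-fold. Mrpl58, a peptidyl-tRNA hydrolase that became a structural protein of the ribosome, was at 36.9 CPM in M5F7 and at 25.6 to 32.4 in the others. Mrpl49 was at 8.81 CPM in M5F22, 8.06 in M5F19, 7.50 in M5F56, 7.33 in M5F7, 6.89 in M5F16, 6.79 in M5F12, 6.45 in M5F55 and 5.78 in M5F5. Its span of 1.52-fold did not exceed counting error (chi-square adjusted p = 0.0946). The gene table used for names pairs a second row, LOC101834613, with the same symbol, and that row holds 816 to 975 counts per library where the Mrpl49 row holds 81 to 129. The sum of both rows spanned 1.20-fold, so the values of the Mrpl49 row are uncertain.

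In the small subunit, 17 members descend from bacterial proteins. Of the 17, 16 lay above their own median in M5F7 (50.5% of all genes tested), 14 in M5F5 (51.9%), 3 in M5F12 (47.2%) and none (0) in M5F16 (51.3%). Mrps18b and Mrps18c are paralogs related to bacterial S18. Mrps18c was at 23.2 CPM in M5F7 (20.8 to 25.8), 22.8 in M5F5, 21.5 in M5F55, 19.1 in M5F22, 17.6 in M5F16 and in M5F56, 16.2 in M5F12 and 14.1 in M5F19 (12.2 to 16.1). M5F7 and M5F5 were high and M5F19 stood lowest, and the span of 1.65-fold, the widest of the small subunit, corresponds to a log2 range of 0.72 that was 0.52 without M5F19. Mrps18b was at 70.7 CPM in M5F5 (66.4 to 75.2), 70.3 in M5F7, 63.6 in M5F55, 55.5 in M5F12, 55.2 in M5F19, 55.1 in M5F56, 52.4 in M5F16 and 49.3 in M5F22 (45.8 to 53.0). Both paralogs thus had M5F5, M5F7 and M5F55 as their 3 highest libraries, but M5F19, lowest for Mrps18c, was near the median for Mrps18b.

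Mrps15 was at 159 CPM in M5F7, 151 in M5F5, 148 in M5F56, 138 in M5F55, 137 in M5F22, 131 in M5F19, 119 in M5F16 and 117 in M5F12. M5F12 and M5F16 were the lowest and M5F7 and M5F5 the highest, as for the members as a whole. Mrps21 had the same libraries at its ends, with 172 CPM in M5F5, 169 in M5F7, 163 in M5F55, 162 in M5F56, 160 in M5F22, 159 in M5F19, 151 in M5F12 and 149 in M5F16. Mrps12, which lies at the decoding centre, differed in order. It was highest in M5F55 at 19.1 CPM (16.9 to 21.5) and next in M5F7 at 18.7, followed by 16.2 in M5F12, 15.7 in M5F22, 15.0 in M5F16, 14.8 in M5F56, 14.2 in M5F5 and 14.1 in M5F19. M5F5, high for most members, was here the second lowest. Mrps6 was at 8.94 CPM in M5F19 (7.48 to 10.6), 8.88 in M5F55, 8.43 in M5F7, 7.71 in M5F5, 6.66 in M5F12, 6.35 in M5F22, 6.29 in M5F16 and 6.17 in M5F56 (4.95 to 7.60), and the intervals of its highest and lowest libraries touched. Mrps5, which lines the entrance for messenger RNA, was at 94.0 CPM in M5F22, 90.3 in M5F12 and M5F56, 89.5 in M5F55, 89.4 in M5F7, 89.3 in M5F5, 88.1 in M5F19 and 84.0 in M5F16, and spanned 1.02-fold once the extremes were dropped.

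The 8 small subunit proteins found only in mitochondria followed in part. In M5F5, 7 of 8 lay above their own median (51.9% of all genes tested) and in M5F12 none (0) did (47.2%). In M5F7 only 3 did (50.5%). Mrps33 was at 85.0 CPM in M5F5 (80.2 to 89.9), 81.3 in M5F7, 75.2 in M5F56, 73.1 in M5F55, 70.3 in M5F22, 68.1 in M5F19, 63.2 in M5F16 and 60.4 in M5F12 (56.4 to 64.5). The order matched that of the summed members at both ends. Mrps27, a pentatricopeptide repeat protein, ran differently, with its peak of 90.3 CPM in M5F19 and only 76.8 CPM in M5F7. Mrps22, another of the genes named at the outset for human cardiomyopathy, ran from 43.5 CPM in M5F12 to 55.7 in M5F5, a span of 1.28-fold.

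Mrps36 is the only member to span 2-fold, and it is also the one that is not a ribosomal protein. Despite its name, it is known as an adaptor of the 2-oxoglutarate dehydrogenase complex of the citric acid cycle. It was at 22.2 CPM in M5F7 (19.9 to 24.8), 20.3 in M5F5, 17.7 in M5F22, 16.8 in M5F56, 16.5 in M5F19, 14.4 in M5F12, 11.5 in M5F16 and 9.79 in M5F55 (8.24 to 11.5). M5F55 and M5F16 were low, M5F7 and M5F5 high, and the intervals of M5F55 and M5F7 did not overlap. The span was 2.26-fold, 1.76-fold with the extremes dropped, and the log2 range of 1.18 was 0.94 without M5F55.

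**Figure D4:**
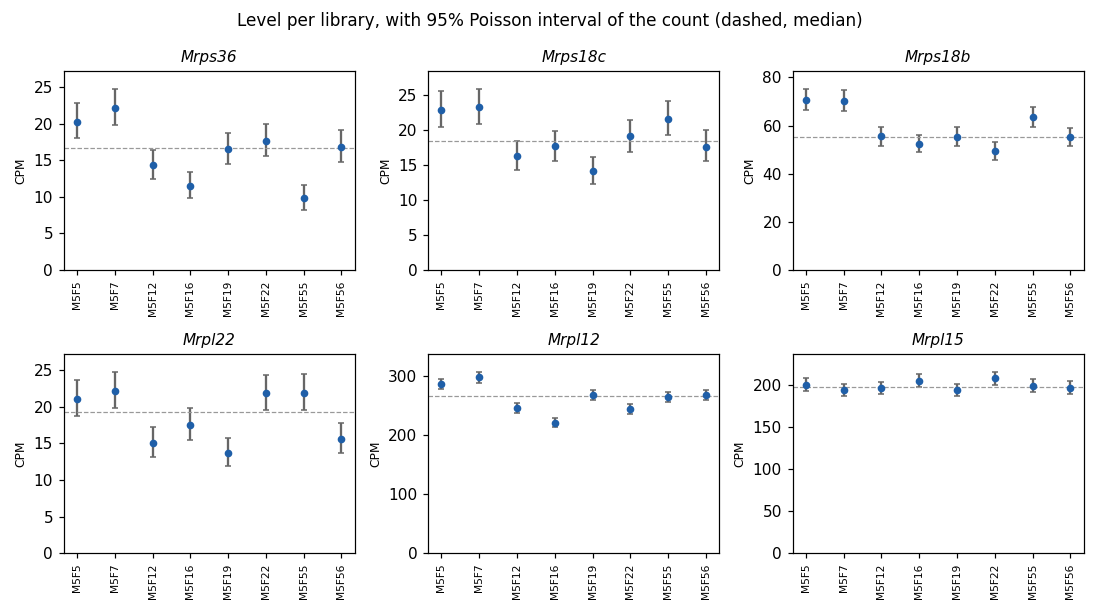
CPM of 6 members in each library (points) with the 95% Poisson interval of the count (bars) and the median over libraries (dashed line); axes start at 0. Mrps36 is lowest in M5F55 at 9.79 CPM, Mrps18c in M5F19 at 14.1, and Mrpl15 stays between 194 and 208 CPM.

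Lists of related genes were set beside the members. Proteins of the mitochondrial ribosome that carry other names, with the insertase Oxa1l that receives its products, gave 6 measured genes and deviated like the members, by 0.16 in M5F5, 0.052 in M5F7 and -0.14 in M5F12, though by only -0.036 in M5F16. Chchd1 ran from 37.7 CPM in M5F12 to 54.5 in M5F7, and Gadd45gip1 from 43.4 to 63.5 CPM between the same libraries. Aurkaip1 was lowest in M5F12 at 82.8 CPM and highest in M5F55 at 124. Ptcd3, a pentatricopeptide protein of the small subunit, was highest in M5F5 at 128 CPM and next in M5F7 at 123. It differed at the low end, with 121 CPM in M5F12 and its lowest value, 107, in M5F55.

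Genes that act on the ribosome without being part of its structure spanned a median of 1.28-fold, beside 1.31-fold for the members. Over 59 translation factors, mitochondrial aminoacyl-tRNA synthetases and assembly factors, the median deviation lay between -0.032 in M5F12 and 0.029 in M5F22, and was 0.0056 in M5F5 and -0.00080 in M5F7. Of these, 32 lay above their own median in M5F5 (51.9% of all genes tested), 28 in M5F7 (50.5%), 20 in M5F12 (47.2%) and 28 in M5F16 (51.3%). Of the 59, 45 differed beyond counting error, beside 86.4% of all genes tested, and none (0) spanned 2-fold, beside 13.9%. Whether these lists differ from the members was not tested, since the members were chosen with results of these data known.

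Among the 10 measured translation factors, Tufm, the elongation factor that delivers aminoacyl-tRNA, followed the members at the top, with 290 CPM in M5F5 and 282 in M5F7 against 226 to 265 in the others. Gfm1, the elongation factor of translocation, peaked in M5F19 at 485 CPM and was lowest in M5F56 at 406. Mtif3, an initiation factor, was lowest in M5F56 and M5F5, both at 24.1 CPM, and in M5F7 at 25.2, against 30.3 to 33.9 in the other 5. Mtrf1l, a release factor, stayed between 9.34 and 12.3 CPM, within counting error (adjusted p = 0.135).

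The 22 synthetase genes, which charge transfer RNAs, spanned a median of 1.31-fold. Lars2 was lowest in M5F7 (81.0 CPM) and M5F5 (88.6 CPM) and highest in M5F19 (120 CPM), and Iars2 was lowest in M5F7 (555 CPM) and M5F5 (566 CPM) with 583 to 661 CPM elsewhere. Ears2 ran from 29.2 CPM in M5F7 to 50.7 in M5F16, and Mars2 from 7.93 in M5F5 to 12.7 in M5F56. M5F5 and M5F7, the highest libraries for most members, were thus the lowest for both Lars2 and Iars2. The list as a whole did not run this way. Of the 22, 11 lay above their own median in M5F5 (51.9% of all genes tested) and 10 in M5F7 (50.5%).

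Among the 27 assembly factors, which process ribosomal RNA and join the subunits, 13 lay above their own median in M5F5 (51.9% of all genes tested) and 13 in M5F7 (50.5%). Of the genes named here, Ptcd1 and Mrm1 also had M5F5 and M5F7 as their lowest libraries. Ptcd1 was at 71.4 CPM in M5F7 and 73.0 in M5F5 against 79.6 to 103 in the others, and Mrm1, a ribosomal RNA methyltransferase, at 10.4 and 10.6 CPM against 11.4 to 16.5. Afg3l2, a subunit of the protease that matures Mrpl32, spanned 1.11-fold. Nsun4, a further ribosomal RNA methyltransferase, was highest in M5F5 at 10.4 CPM and lowest in M5F19 at 6.28.

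Of 17 measured genes of mitochondrial transcription and RNA stability, all 17 differed beyond counting error, beside 86.4% of all genes tested, and none (0) spanned 2-fold, beside 13.9%. Lrpprc, which stabilises mitochondrial messenger RNAs, was lowest in M5F7 (456 CPM), M5F5 (468 CPM) and M5F56 (469 CPM) and reached 591 CPM in M5F16. Tfam, which packages mitochondrial DNA and starts its transcription, was at 3.82 CPM in M5F55 and 7.28 in M5F16, on 55 and 110 counts. Polg2, of the DNA polymerase, ran from 5.54 to 8.26 CPM and Hsd17b10 from 165 CPM in M5F12 to 220 in M5F55. Transcripts of mitochondrial DNA itself were not analysed here, since none (0) of the 22 names searched had a row.

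Complex I subunits, a further set of nuclear-encoded mitochondrial proteins, had the same extremes as the members with larger deviations. The median deviation of 37 subunits was 0.21 in M5F5, 0.22 in M5F7, -0.24 in M5F12 and -0.19 in M5F16. In these libraries 36, 36, 0 and 1 of them lay above their own median, beside 51.9%, 50.5%, 47.2% and 51.3% of all genes tested. Ndufb10 spanned 2.12-fold, from 288 CPM in M5F12 to 611 in M5F7, and Ndufa2 ran from 116 CPM in M5F12 to 183 in M5F5. Ndufs1, which carries iron-sulphur clusters, was highest in M5F22 at 1434 CPM, and Ndufa10 spanned 1.08-fold. Cytosolic ribosomal proteins, 60 measured, were highest in M5F5 for 57 genes (16.5% of all genes tested), where the members were for 32 of 76. They were lowest in M5F19 for 39 (15% of all genes tested), where the members were for 9. Their median deviation was 0.32 in M5F5, 0.14 in M5F7, -0.20 in M5F19 and 0.098 in M5F55. Rpl5 ran from 462 CPM in M5F19 to 616 in M5F5 and Rps3 from 418 to 564 CPM between the same libraries. Rpl19, at 4.16 to 15.8 CPM, and Rpl35a, at 4.99 to 14.2 CPM, were lowest in M5F12, and their rows may share reads with near-identical copies. All these lists were scaled together with the members, and the differences between them were not tested.

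**Figure D5:**
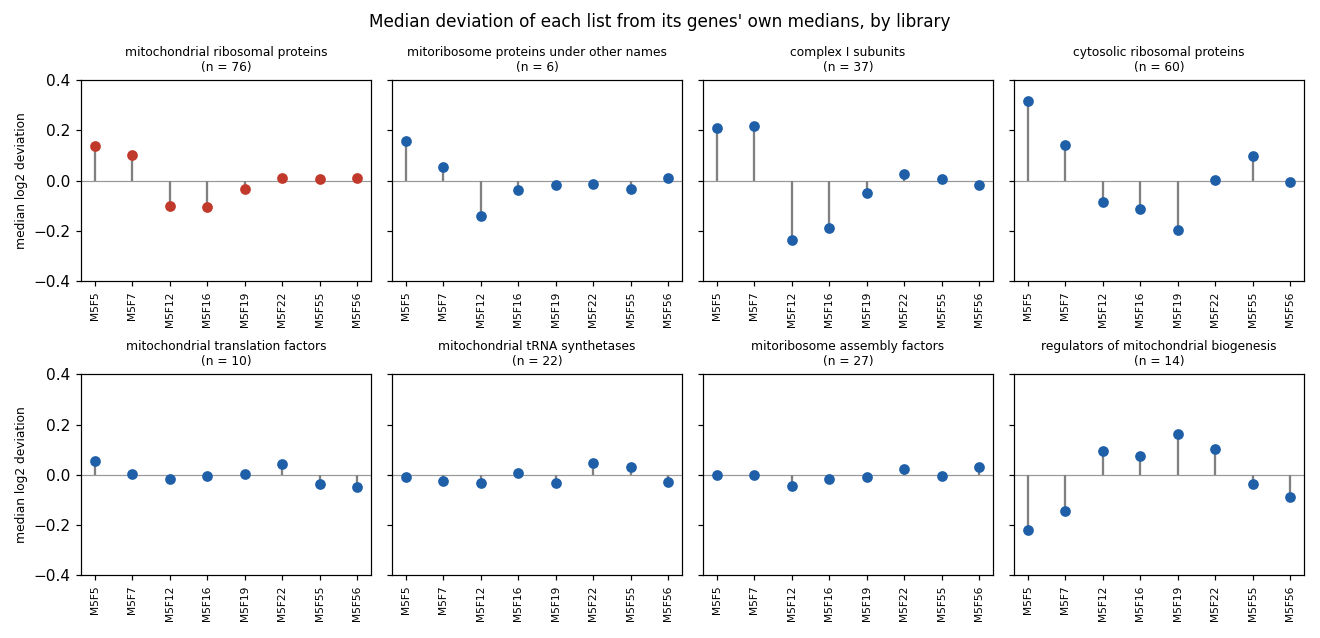
Median over each list of the deviation of log2 CPM from the gene's own median (vertical) in each of the 8 libraries (horizontal), for the 76 members (red) and 7 lists of related genes (blue), with n the number of genes measured. The members, complex I subunits and cytosolic ribosomal proteins are above 0 in M5F5 and M5F7 and below it in M5F12 and M5F16, the translation factors, synthetases and assembly factors stay close to 0, and the regulators are at -0.22 in M5F5 and 0.16 in M5F19.

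Regulators of mitochondrial biogenesis ran the other way in the outer libraries. Over 14 genes the median deviation was -0.22 in M5F5, -0.15 in M5F7, 0.096 in M5F12, 0.076 in M5F16 and 0.16 in M5F19. Of the 14, 12 differed beyond counting error, beside 86.4% of all genes tested, and 5 spanned 2-fold, beside 13.9%. Ppargc1a, the coactivator PGC-1 alpha that drives nuclear genes of mitochondria, was at 104 CPM in M5F7, 124 in M5F5, 147 in M5F56, 160 in M5F55, 183 in M5F12, 209 in M5F19, 214 in M5F16 and 257 in M5F22. The libraries with the highest summed members were thus the lowest for Ppargc1a. Ppara, the receptor that switches on fatty acid oxidation genes, was at 24.9 CPM in M5F7 and 25.5 in M5F5 against 35.3 to 84.9 in the others, and Esrrb at 3.57 CPM in M5F5 and 3.70 in M5F7 against 5.55 to 10.1. Esrra, which works with PGC-1 alpha, spanned only 1.30-fold, from 107 CPM in M5F22 to 139 in M5F19.

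Of 10 measured genes of the mitochondrial unfolded protein response, all differed beyond counting error, beside 86.4% of all genes tested, and 1, Fgf21, spanned 2-fold, beside 13.9%. Fgf21, a secreted hormone of mitochondrial and nutrient stress, was at 47.7 CPM in M5F55, 36.2 in M5F7, 34.1 in M5F5 and in M5F12, 26.4 in M5F16, 26.3 in M5F56, 21.0 in M5F19 and 18.6 in M5F22. Hspe1, the cochaperonin of the matrix, was highest in M5F7 (176 CPM) and M5F5 (173 CPM) and lowest in M5F16 (126 CPM) and M5F12 (131 CPM), the same ends as the members. Hspa9, the main matrix chaperone, spanned 1.06-fold, from 1060 to 1122 CPM. The protease gene Lonp1 ran from 230 CPM in M5F12 to 273 in M5F5.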

How the data were processed

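Per the labels, Trizol was used on the hearts and mRNA was then taken with polyA probes. The authors deposited whole-number counts per gene and library, taken here as not normalized. HISAT2 2.0.4, Bowtie2 2.2.5 and RSEM are named in the submitters' processing notes without roles. Neither build nor annotation, nor whether RSEM estimates were rounded, is stated in the sources used here, so reads of near-identical copies may sit in either row. All columns matched a library label.

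Counts were scaled with TMM factors (edgeR 4.0.16, R 4.3.3), 0.960 to 1.05. To form log2 CPM, 0.5 was added to counts. Genes averaging 50 counts or more were tested by chi-square against equal relative abundance, adjusted by Benjamini-Hochberg over all of them (threshold 0.05; SciPy 1.17.1). The trimmed range drops a gene's highest and lowest library. The calculation was tested on simulated data. A gene's deviation is its log2 CPM minus its own median over the libraries.

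Members, role groups and lists were chosen with earlier results of these data known. Named members were those with the highest CPM, the widest full or trimmed range or the narrowest range, and the Mrps18 paralogs. Each related list gave its most abundant and most variable genes. Other members were named for their role or, as exceptions, after their values were seen, and the ratio to ventricular markers was also added then. Symbols for LOC rows came from the RefSeq gene table of BCM_Maur_2.0. Planned per-length levels, neighbouring genes on opposite strands, protein and promoter sequences were not used here. Alternatives were DESeq2 1.42.0 size factors, total counts, another prior count, other filters and each library left out.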

Additional observations from a re-analysis of the deposited data

Results flagged for a closer look

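Mrps34, a small subunit protein found only in mitochondria, was highest in M5F5 at 46.9 CPM (43.4 to 50.6). Its other 7 libraries ran from 36.1 to 40.6 CPM. It was the only 1 of 78 measures examined (76 members, their sum and their median deviation) that was flagged for its gap. Chance alone flags about 5% of such sets of values, a larger share than 1 of 78.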

How the results depend on the processing

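No deviation larger than its SD over libraries changed sign. Smaller ones did: the Mrpl minus Mrps deviation, -0.015 in M5F16 and -0.021 in M5F19, became 0.0010 and 0.00030 without M5F5, and 0.00030 in M5F19 without M5F7, and the members' deviation in M5F22 became -0.017 with plain total counts. Of 656 recomputed values, 617 stayed within 1.5 times the main count or 1 SD. With plain total counts the number of members highest became 3 in M5F12, 2 in M5F16, 2 in M5F19, 3 in M5F22 and 16 in M5F56, and the number lowest 18 in M5F12, 11 in M5F16, 25 in M5F19, 10 in M5F22 and 3 in M5F56; the cause was not tested. The number lowest in M5F5 was 2 with DESeq2 size factors and 0 with a mean count of at least 200. Without Mrps36 or without M5F55, 0 members spanned 2-fold.

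With each library left out in turn, 63 to 68 members passed the chi-square test, 0 to 1 spanned 2-fold and the median log2 range was 0.34 to 0.38. The number highest was 32 to 47 in M5F5, 19 to 36 in M5F7, 1 to 2 in M5F12, 0 to 1 in M5F16, 7 to 8 in M5F19, 5 to 12 in M5F22, 7 to 10 in M5F55 and 5 to 9 in M5F56. The number lowest was 1 to 2 in M5F5, 2 to 5 in M5F7, 29 to 35 in M5F12, 22 to 37 in M5F16, 8 to 15 in M5F19, 3 to 9 in M5F22, 5 to 9 in M5F55 and 5 to 8 in M5F56. The median deviation of Mrpl minus Mrps names ran from -0.060 to -0.011 in M5F5 and from 0.014 to 0.083 in M5F12.

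No paired analysis was possible because the labels give no groups or replicate numbers. Counts of about 100 per library limit what can be said of the least abundant members.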
